A study of Mus musculus with 12 samples.

Results

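The 36 genes described here encode the proteins that sense broken DNA, pass that signal to the cell cycle and rejoin the ends. They were taken as a fixed list of mouse gene symbols for ATM and ATR signaling, the 53BP1 axis and classical and alternative end joining. Each matched 1 of the 37991 gene identifiers in the count files, and all 36 were among the 15327 genes that passed the filter on low counts. The list holds 4 genes of ATM signaling at breaks, 5 of the ubiquitin relay and 53BP1 axis, 3 of the BRCA1-A complex, 7 of classical end joining, 5 of alternative end joining and single-strand break repair, 7 for the ATR kinase and its activators, and 5 fork mediators and checkpoint effectors.

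RNA-seq counts came from 12 samples of primary mouse embryonic fibroblasts (MEFs), cells grown from embryos aged 13.5 days and used at passage 3. MEFs were wild-type or carried homozygous E2f1 3KR/3KR, a germline knock-in present in every cell of the animal that replaces with arginine the 3 lysines of E2F1 that become acetylated. The knock-in was made with a zinc finger nuclease and descends from 1 correctly targeted founder, and the wild-type mice were purchased. Both genotypes were of the FVB strain, and all cells were kept in 5% oxygen. Each genotype was left untreated or exposed to neocarzinostatin (NCS), a radiomimetic drug that breaks DNA, at 250 ng/ml for 3 h, with 3 samples in each of the 4 groups. The study describes the replicates behind its graphs of these RNA-seq data as independent experiments. Whether the 3 samples of a group came from separate embryos is not given, and the p-values measure the spread between these samples.

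ATM is the kinase that answers double-strand breaks. It phosphorylates the histone variant H2AX, MDC1 reads that mark, and the ubiquitin ligases RNF8 and RNF168 then build the platform that holds 53BP1 and RIF1, which protect ends from resection, and the BRCA1-A complex. Protected ends are joined by Ku, DNA-PKcs and the XRCC4 and LIG4 ligase, resected ends can be joined by DNA polymerase theta with PARP1 and LIG3, and ATR answers single-stranded DNA at stalled forks through CHK1 and WEE1, which delay entry into mitosis. Much of this machinery is regulated through protein modification, and genes for replication and checkpoint proteins are known E2F targets.

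Promoters of the genes were read from RefSeq (GRCm38.p6), where 30 of the 36 genes matched with 33 promoters of 300 bases. Rif1, H2afx, Wee1, Prkdc, Tipin and Rad9a had no entry. An E2F word (TTTCCCGC, TTTCGCGC, TTTGCCGC or TTTGGCGC on either strand) was in 4 of the 33 promoters, 12.1%, against 2.27% of all 32851 promoters and 3.73% of the 14233 promoters of tested genes. Of 25 promoters of S, G2 and M phase genes, described below, 8 (32%) held such a word. The 4 promoters found among the 36 genes are shown because their genes are compared below between a wild-type and a mutant E2F1. Each runs from 170 bases before to 30 bases after the RefSeq start site, and the capitals mark the E2F word.
Chek2 (checkpoint kinase, chr5:110839813-110840012, plus strand): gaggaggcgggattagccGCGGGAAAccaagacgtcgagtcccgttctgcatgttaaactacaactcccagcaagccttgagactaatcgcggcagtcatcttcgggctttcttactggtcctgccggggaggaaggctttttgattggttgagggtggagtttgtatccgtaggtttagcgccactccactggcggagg
Mdc1 (reader of phosphorylated H2AX, chr17:35841328-35841527, plus strand): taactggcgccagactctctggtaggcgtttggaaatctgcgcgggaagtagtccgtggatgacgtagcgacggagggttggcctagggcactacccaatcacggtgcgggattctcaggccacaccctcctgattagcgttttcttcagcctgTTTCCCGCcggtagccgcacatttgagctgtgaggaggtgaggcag
Xrcc6 (the Ku70 subunit, chr15:82016199-82016398, plus strand): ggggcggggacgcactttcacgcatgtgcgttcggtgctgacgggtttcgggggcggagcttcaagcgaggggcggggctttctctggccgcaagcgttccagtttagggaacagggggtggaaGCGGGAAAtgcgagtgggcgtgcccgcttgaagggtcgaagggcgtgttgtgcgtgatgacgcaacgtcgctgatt
Clspn (the adaptor claspin, chr4:126556810-126557009, plus strand): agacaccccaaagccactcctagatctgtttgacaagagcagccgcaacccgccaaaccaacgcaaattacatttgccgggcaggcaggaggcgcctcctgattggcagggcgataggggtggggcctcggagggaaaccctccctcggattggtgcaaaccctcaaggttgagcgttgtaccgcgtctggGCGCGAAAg

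The word began 152 bases before the start site in Chek2, 46 before in Xrcc6, 16 before in Mdc1 and 21 after it in Clspn. The CCAAT box, searched as CCAAT on either strand, was in 15 of the 33 promoters (45.5%) against 37.4% of all promoters and 37.3% of those of tested genes. The CHR element, searched as TTTGAA or TTCGAA on either strand, was in 5 (15.2%) against 19.2% of all promoters and 13.96% of those of tested genes. The decamer of the p53 response element was in 0 of 33 promoters against 8.36% of all promoters and 7.08% of those of tested genes. Among the 25 promoters of S, G2 and M phase genes 84% held the CCAAT box, 44% the CHR element and 4% the decamer. In the 4 promoters no E2F word overlapped a CCAAT box, and none of the 4 held a CHR word. A match is a description of these letters and says nothing of binding.

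Counted reads ranged from 33203757 to 45279321 per sample, and the 36 genes took 0.0800% to 0.103% of them. The lowest count of any of the 36 genes in a sample was 77, for Nhej1. Wild-type replicate 3 stood apart in both treatments, its chi-square against the other samples of its group being 7.57 to 9.37 per gene and that of every other pair at most 2.34. The labels of genotype went with the sex of the cells. Xist, which marks an inactive X, was 42.6 to 48.9 normalized counts in untreated wild-type and 30590.1 to 30649 in untreated 3KR MEFs, and the Y-linked Ddx3y was 5370.3 to 5655 and 10.9 to 11.4, so genotype and sex cannot be told apart here. E2f1 itself was 1042, 1099 and 1296 normalized counts in untreated wild-type and 1125, 1111 and 1128 in untreated 3KR MEFs (edgeR FDR = 0.71), and a count per gene does not see the 3 changed codons. All 12 fibroblast markers, Col1a1 and Pdgfra among them, passed the filter on low counts. All 10 macrophage and all 10 Schwann cell and neural crest markers passed it too. Of the others, 5 of 8 endothelial, 3 of 7 epithelial, 4 of 7 skeletal muscle and 0 of 5 erythroid markers passed. Passing the filter therefore does not single out fibroblasts. The p53 target Cdkn1a, which encodes the cell cycle inhibitor p21, rose with NCS by a log2 value of 1.18 in wild-type MEFs and 1.34 in 3KR MEFs, Mdm2 by 0.84 and 0.96 and Ccng1 by 1.01 and 1.35. Normalized counts here and below are counts divided by the size factor of each sample.

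Levels of different genes were compared only per length, as TMM-scaled CPM per kilobase of the transcript with the longest coding sequence, on a linear scale. In untreated wild-type MEFs the 36 genes spanned 40.5-fold, with a median of 5.38. Babam1, the MERIT40 subunit of the BRCA1-A complex, was at 36.3 ± 1.25 (SD, n = 3) and H2afx, the histone variant H2AX, at 35.4 ± 1.06, and their samples overlapped. Parp1, the poly(ADP-ribose) polymerase that binds strand breaks, followed at 18.6 ± 0.285 and Tipin at 15.1 ± 0.698, each apart from its neighbours in this order. The kinases ATR, ATM and CHK1 lay below the median, with Atr at 3.01 ± 0.247, Atm at 2.8 ± 0.275 and Chek1 at 2.55 ± 0.0782, and Atr, Atm and Chek1 overlapped in turn. Polq, which encodes DNA polymerase theta, at 1.28 ± 0.105 and Prkdc, the catalytic subunit of DNA-PK, at 0.896 ± 0.132 were the lowest and did not overlap each other. Of the 35 pairs of neighbours in the order of levels, 22 overlapped between their samples. Poly-A selection can lower the read density far from the 3′ end, so the level of transcripts as long as Prkdc is uncertain on this scale.

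**Figure D1:**
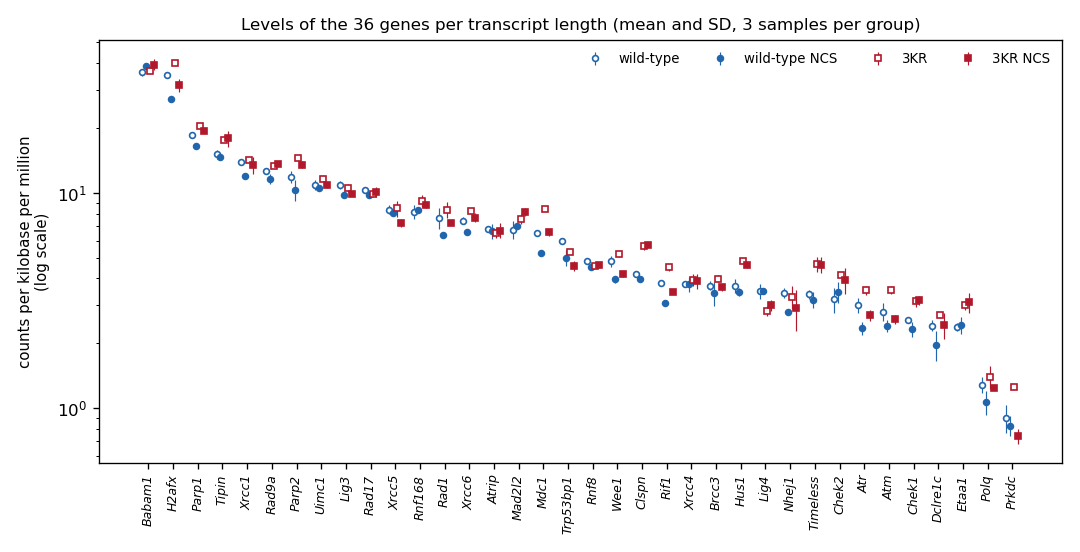
Level of each of the 36 genes (horizontal axis, ordered by untreated wild-type MEFs) in TMM-scaled CPM per kilobase on a log scale, with mean and SD of 3 samples for each of the 4 groups. Babam1 and H2afx are the 2 highest genes at 36.3 and 35.4, and Prkdc is the lowest at 0.896 in untreated wild-type MEFs.

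NCS was compared with no treatment in each genotype, to see how these genes respond to broken DNA. In wild-type MEFs 14 of the 36 genes fell and 0 rose (edgeR FDR under 0.05), where 12.4% of all tested genes fell and 14.3% rose. In 3KR MEFs 9 fell and 0 rose, against 15% and 15.8% of all genes. The median log2 fold change of the 36 genes was -0.12 in wild-type and -0.082 in 3KR MEFs, and that of all tested genes 0.0054 and -0.00078. At an unadjusted p under 0.05, 1 gene was higher in each genotype, Babam1 in both, and the DESeq2 Wald test called 0 higher in either. In either direction 17 and 13 of the 36 genes had an unadjusted p under 0.05, against 5648 and 6127 of the 15327 tested genes. Of the genes that fell, 7 were shared, which is 50% of the wild-type and 77.8% of the 3KR genes: Atm, Atr, H2afx, Mdc1, Rif1, Trp53bp1 and Wee1. How many of all tested genes fell in both genotypes was not counted. Scaled by library total, 1464 of 4349 called genes were higher in wild-type and 1718 of 4993 in 3KR MEFs, against 2189 of 4090 and 2417 of 4721 with TMM, and 17 and 13 of the 36 genes were then lower and 0 higher. In bulk RNA, fewer cells of a kind and less RNA per cell cannot be told apart.

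**Figure D2:**
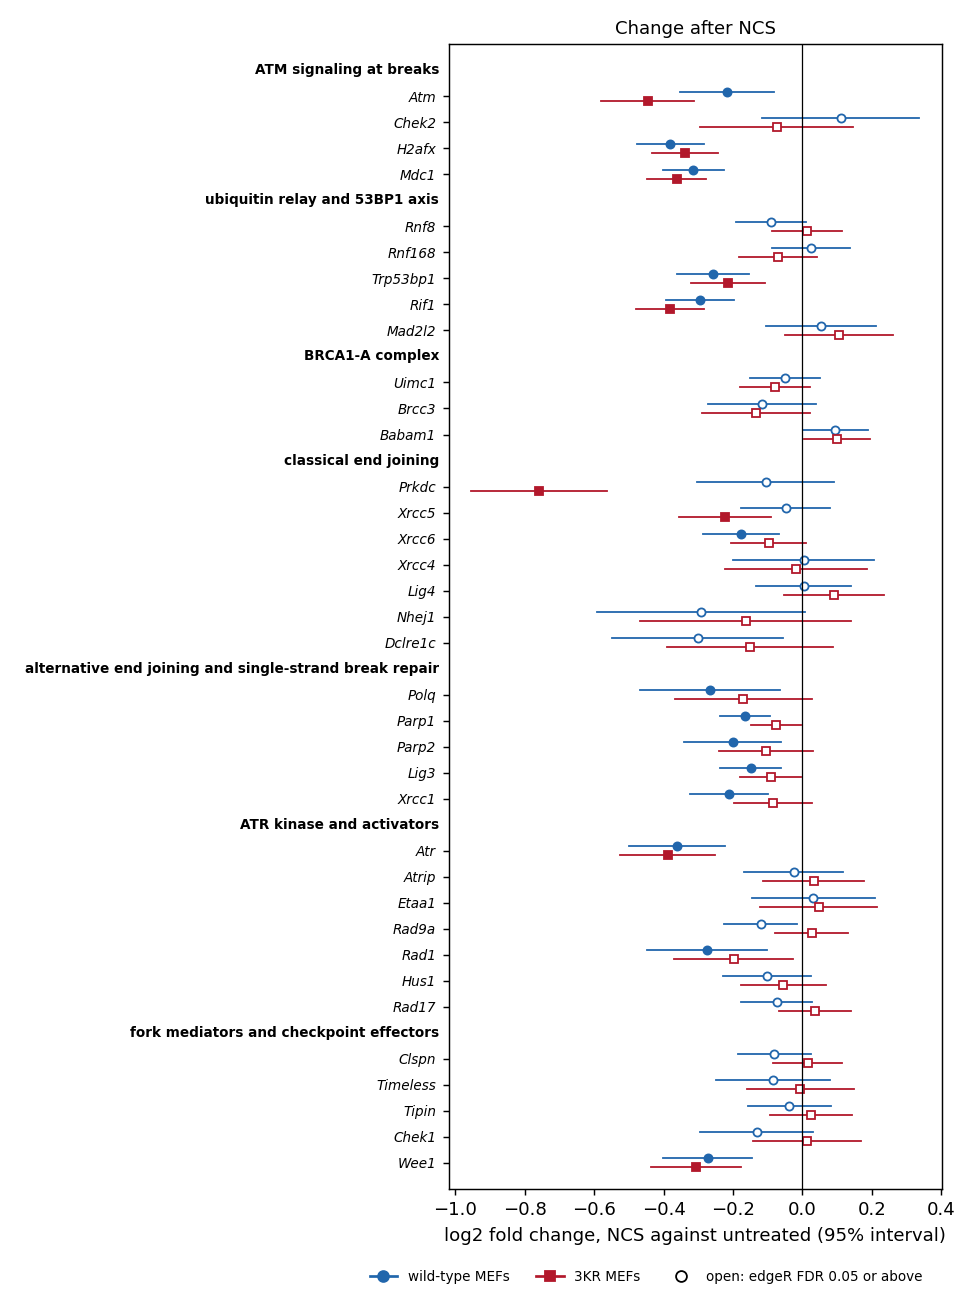
Log2 fold change after NCS (horizontal axis) of each gene, by role, in wild-type (blue circles) and 3KR MEFs (red squares), with 95% intervals and filled symbols where the edgeR FDR is under 0.05. All 14 filled circles and all 9 filled squares lie below 0, from -0.15 for Lig3 in wild-type to -0.76 for Prkdc in 3KR MEFs.

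ATM signaling genes fell in both genotypes, 3 of 4 in each, against 12.4% and 15% of all tested genes. H2afx (ENSMUSG00000049932), the histone variant marked around breaks, had 1804, 1900.1 and 1901 normalized counts in untreated and 1438, 1473 and 1402 in NCS-treated wild-type MEFs, and 2106, 2143 and 2105 in untreated and 1639.5, 1582 and 1797 in NCS-treated 3KR MEFs. Every treated sample lay below every untreated sample of its genotype. The log2 fall of H2afx was 0.38 ± 0.047 (SE, edgeR FDR = 1.35e-06) in wild-type and 0.34 ± 0.046 (edgeR FDR = 4.62e-06) in 3KR MEFs. Mdc1 (ENSMUSG00000061607), whose product binds phosphorylated H2AX, had 1823, 1817 and 1803 normalized counts before and 1438, 1437 and 1517 after NCS in wild-type MEFs, and 2316, 2351 and 2422 before and 1904, 1765 and 1836 after in 3KR MEFs. The treated and untreated samples of Mdc1 did not overlap in either genotype, and on the log2 scale Mdc1 fell by 0.31 ± 0.042 and 0.36 ± 0.041 (edgeR FDR = 4.09e-06 and 2.74e-07). Atm, the break-sensing kinase, fell from 1045 ± 102 to 901 ± 57.9 normalized counts (mean ± SD, n = 3) in wild-type (edgeR FDR = 0.016) and from 1320.2 ± 53.6 to 968 ± 47.6 in 3KR MEFs (edgeR FDR = 9.7e-06). The wild-type call of Atm was lost without replicate 3 of the untreated samples (-0.14 on the log2 scale), without replicate 2 of the treated samples (-0.17) and without replicate 3 of both (-0.14). Chek2, the effector kinase downstream of ATM, overlapped between treatments in both genotypes, with log2 fold changes of 0.11 and -0.074. The antisense gene Gm44335 covers 10.2% of the exon bases of H2afx, and without a stated strand setting reads of both strands cannot be told apart. Of the 50-base words in the exons of H2afx 9.66% recur in other genes, among them Gm44335, Hist1h2ai, Hist1h2aj and Hist1h2ao.

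In the 53BP1 axis, Trp53bp1 and Rif1 fell in both genotypes and the ubiquitin ligases did not pass the test. Rif1 (ENSMUSG00000036202), which acts with 53BP1 to limit resection, had 1224, 1254 and 1209 normalized counts before and 989, 985 and 1038 after NCS in wild-type MEFs, and 1419, 1532 and 1452 before and 1151, 1114 and 1108 after in 3KR MEFs. Treated samples were all below the untreated ones, by 0.30 ± 0.047 and 0.38 ± 0.047 on the log2 scale (edgeR FDR = 4.44e-05 and 9.56e-07). Trp53bp1 (ENSMUSG00000043909), the gene of 53BP1, had 2176, 2200.4 and 2165 normalized counts in untreated wild-type, 1743, 1730.5 and 2016 in treated wild-type, 1982, 1898 and 1989 in untreated 3KR and 1591, 1702 and 1758 in treated 3KR MEFs. Its treated replicate 3 was the closest of the wild-type samples to the untreated ones, still below all of them, and on the log2 scale the gene fell by 0.26 ± 0.05 and 0.22 ± 0.051 (edgeR FDR = 0.000429 and 0.00243). Exons of Tubgcp4 on the other strand cover 15.0% of the exon bases of Trp53bp1. Rnf8 and Rnf168, the ligases that act before 53BP1, had log2 fold changes of -0.09 and 0.024 in wild-type and 0.013 and -0.07 in 3KR MEFs, and Mad2l2, the REV7 subunit of shieldin, 0.054 and 0.11. In the BRCA1-A complex 0 of 3 genes passed the test in either genotype, with 1 of 3, Babam1, under an unadjusted p of 0.05 in each and 0 by DESeq2. Uimc1, which encodes the ubiquitin reader RAP80, had 95% intervals of -0.15 to 0.05 in wild-type and -0.18 to 0.021 in 3KR MEFs, the X-linked deubiquitinase gene Brcc3 -0.27 to 0.04 and -0.29 to 0.023, and Babam1 0.00082 to 0.19 and 0.0055 to 0.19. Without wild-type replicate 3 in both treatments Babam1 was higher after NCS by 0.12 in wild-type (edgeR FDR = 0.0262) and 0.097 in 3KR MEFs (edgeR FDR = 0.0297).

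Of the 7 classical end joining genes, 1 fell in wild-type (14.3%) and 2 other genes fell in 3KR MEFs (28.6%). Of all tested genes 12.4% fell in wild-type and 15% in 3KR MEFs, so the wild-type share was near that of all genes. Xrcc6, the Ku70 subunit that binds the broken end, fell in wild-type MEFs from 934 ± 33.2 to 828 ± 26.1 normalized counts (edgeR FDR = 0.0147) and had a log2 fold change of -0.098 in 3KR MEFs. Its wild-type call was lost without replicate 2 of the untreated or of the treated samples (-0.15 in either case), and exons of Desi1 on the other strand cover 7.69% of its exon bases. Xrcc5, the partner subunit Ku80, fell in 3KR MEFs from 827 ± 70.5 to 709 ± 31 (edgeR FDR = 0.00976) and had a log2 fold change of -0.049 in wild-type MEFs. The call of Xrcc5 was lost without replicate 3 of the untreated 3KR samples (-0.15). The difference between genotypes did not pass the test for either Ku gene (edgeR FDR = 0.661 for Xrcc6 and 0.344 for Xrcc5). Xrcc4 and Lig4, which form the end-joining ligase, had wild-type log2 fold changes of 0.004 and 0.004, and Nhej1, the gene of XLF, -0.29 with an interval of -0.59 to 0.0076. In 3KR MEFs Xrcc4 had -0.02, Lig4 0.092, Nhej1 -0.16 and Dclre1c -0.15. Dclre1c, which encodes the nuclease Artemis, was lower in every treated wild-type sample at -0.30 on the log2 scale (edgeR FDR = 0.0629). With the sample number within each genotype as a replicate block, its edgeR FDR was 0.0332. Prkdc, the remaining gene, is described with the difference of responses.

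All 5 genes of alternative end joining and single-strand break repair fell in wild-type MEFs, where 12.4% of all tested genes fell. In 3KR MEFs 0 of 5 passed the test, where 15% of all tested genes fell. Parp1 and Lig3 had an unadjusted p under 0.05 in 3KR MEFs, and DESeq2 also called 0 there. In wild-type MEFs Parp1 fell from 2746 ± 41.1 to 2453 ± 10.2 normalized counts, by 0.17 ± 0.035 on the log2 scale (edgeR FDR = 0.000842), against -0.077 ± 0.035 in 3KR MEFs (edgeR FDR = 0.0979). Xrcc1, the scaffold for ligase III, fell by 0.21, Lig3, the ligase itself, by 0.15, Parp2 by 0.20 and Polq by 0.27, and in 3KR MEFs these had log2 fold changes of -0.085, -0.091, -0.10 and -0.17. The responses of the genotypes were not shown to differ for any of the 5, with differences of 0.058 for Lig3 to 0.13 for Xrcc1 and edgeR FDR values of 0.379 for Parp1 to 0.789 for Polq. Treated and untreated wild-type samples of Parp2 overlapped, at 672 to 826 and 795 to 906 normalized counts. The call of Parp2 was lost without untreated wild-type replicate 1 or treated replicate 2 or 3, and with replicate 3 left out of both (-0.15, -0.20, -0.13 and -0.13). The call of Polq was lost by DESeq2 (-0.26), without untreated wild-type replicate 2 or 3 (-0.29 and -0.20), without treated replicate 1 (-0.17) and without replicate 3 of both (-0.25), and that of Lig3 without treated replicate 2 (-0.12). Parp2 and Polq also missed the threshold when only the 6 wild-type samples were fitted. Exons of Rffl on the other strand cover 25.1% of the exon bases of Lig3.

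Among the ATR genes the kinase itself fell in both genotypes. Atr (ENSMUSG00000032409) had 892, 878 and 1015 normalized counts in untreated and 773, 671 and 730.4 in treated wild-type MEFs, and 1118, 1034 and 1131 in untreated and 814, 800.4 and 890.2 in treated 3KR MEFs. No treated sample reached an untreated one of its genotype, and Atr fell by 0.36 ± 0.067 and 0.39 ± 0.066 on the log2 scale (edgeR FDR = 0.000249 and 7.21e-05). Its binding partner Atrip had log2 fold changes of -0.025 and 0.032, and Etaa1, which activates ATR at RPA-coated DNA, 0.032 and 0.046. Of the checkpoint clamp, Rad1 fell in wild-type MEFs by 0.27 (edgeR FDR = 0.0166) and had -0.20 in 3KR MEFs (edgeR FDR = 0.0724), whereas Rad9a had -0.12 and 0.027 and Hus1 -0.10 and -0.055. The call of Rad1 was lost without replicate 1 of the untreated or of the treated wild-type samples (-0.19 and -0.26). Rad17, which loads the clamp, had -0.075 and 0.036. At the end of the pathway Wee1, the kinase that inhibits CDK1, fell from 625 ± 35.2 to 518 ± 17.5 normalized counts in wild-type (edgeR FDR = 0.0019) and from 678 ± 18 to 548 ± 19.6 in 3KR MEFs (edgeR FDR = 0.000534). The other 4 genes of that group, Clspn, Timeless, Tipin and Chek1, had log2 fold changes between -0.13 for Chek1 and -0.039 for Tipin in wild-type and between -0.0059 for Timeless and 0.025 for Tipin in 3KR MEFs. None of these 4 passed the edgeR test, had an unadjusted p under 0.05 or was called by DESeq2. Trex1 on the same strand covers 16.0% of the exon bases of Atrip, so reads there could be assigned to either gene. On the opposite strand other genes cover 5.03% of the exon bases of Atr, 3.83% of Dclre1c and 8.18% of Uimc1.

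Genes of the cell cycle moved with NCS as well. All 11 G2 and M phase genes fell in both genotypes, and their summed level in wild-type MEFs was 27826 to 28576 normalized counts before and 17043 to 18222 after NCS. In 3KR MEFs it was 34289.8 to 34750.4 before and 25345 to 25565 after. Of the 16 S phase genes 3 rose and 1 fell in wild-type and 7 rose and 0 fell in 3KR MEFs. The part of the cell cycle in the lower counts of the 36 genes was not tested. Gene length was also recorded. The 10 genes that span over 50000 bases held 5 of the 14 genes that fell in wild-type and 5 of the 9 in 3KR MEFs, and the 26 shorter genes held 9 and 4. Rif1, which fell in both genotypes, spans 49552 bases and so lies just on the shorter side of this cut. The median span was 78127 bases for the genes that fell in 3KR MEFs against 23976 for the other genes there, and 29742 against 27089 in wild-type MEFs. The part of gene length was not tested, and the same split was not made for all tested genes.

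**Figure D3:**
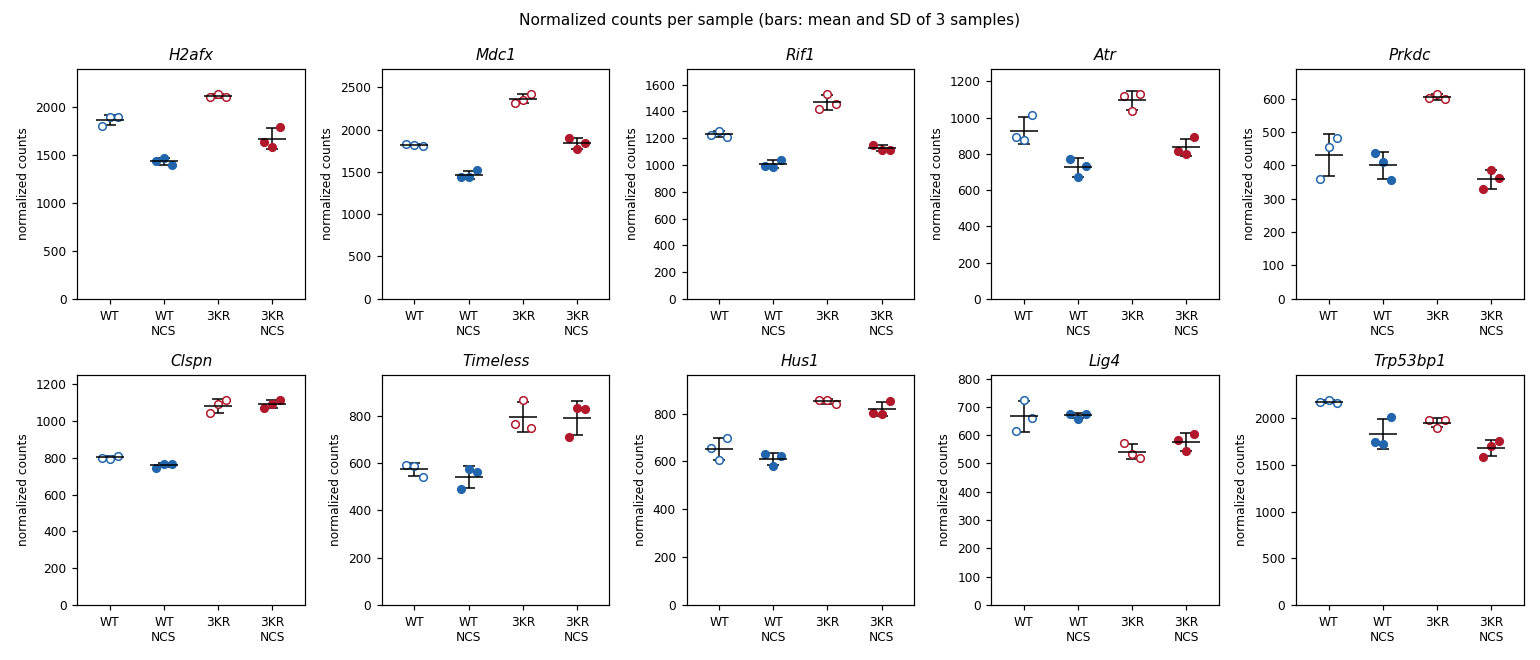
Normalized counts (vertical axes, from 0) of 10 genes in each of the 12 samples, with the mean and SD of 3 samples per group (open, untreated and filled, NCS). H2afx, Mdc1, Rif1 and Atr lie lower after NCS in both genotypes, Prkdc is between 599 and 615 in untreated 3KR MEFs and at most 481 in the other groups, and Clspn, Timeless and Hus1 lie higher in 3KR MEFs in both treatments.

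Genotypes were compared without treatment and after NCS, to see whether these genes depend on the acetylated lysines of E2F1. In untreated MEFs 17 of the 36 genes were higher in 3KR than in wild-type and 2 were lower, against 22.1% and 23.6% of all tested genes. After NCS 17 were higher and 1 lower, against 22.9% and 23.6%. The median log2 fold change of the 36 genes was 0.14 before and 0.17 after NCS, and that of all tested genes -0.00036 and 0.0037. Of the higher genes 13 were shared, which is 76.5% of each comparison, and Lig4 was lower in both. Sharing among all tested genes was not counted. The 13 were H2afx, Mdc1, Rif1, Xrcc6, Parp1, Parp2, Atr, Etaa1, Hus1, Clspn, Timeless, Tipin and Chek1. The effect of the mutation and that of the sex of the cells cannot be told apart.

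**Figure D4:**
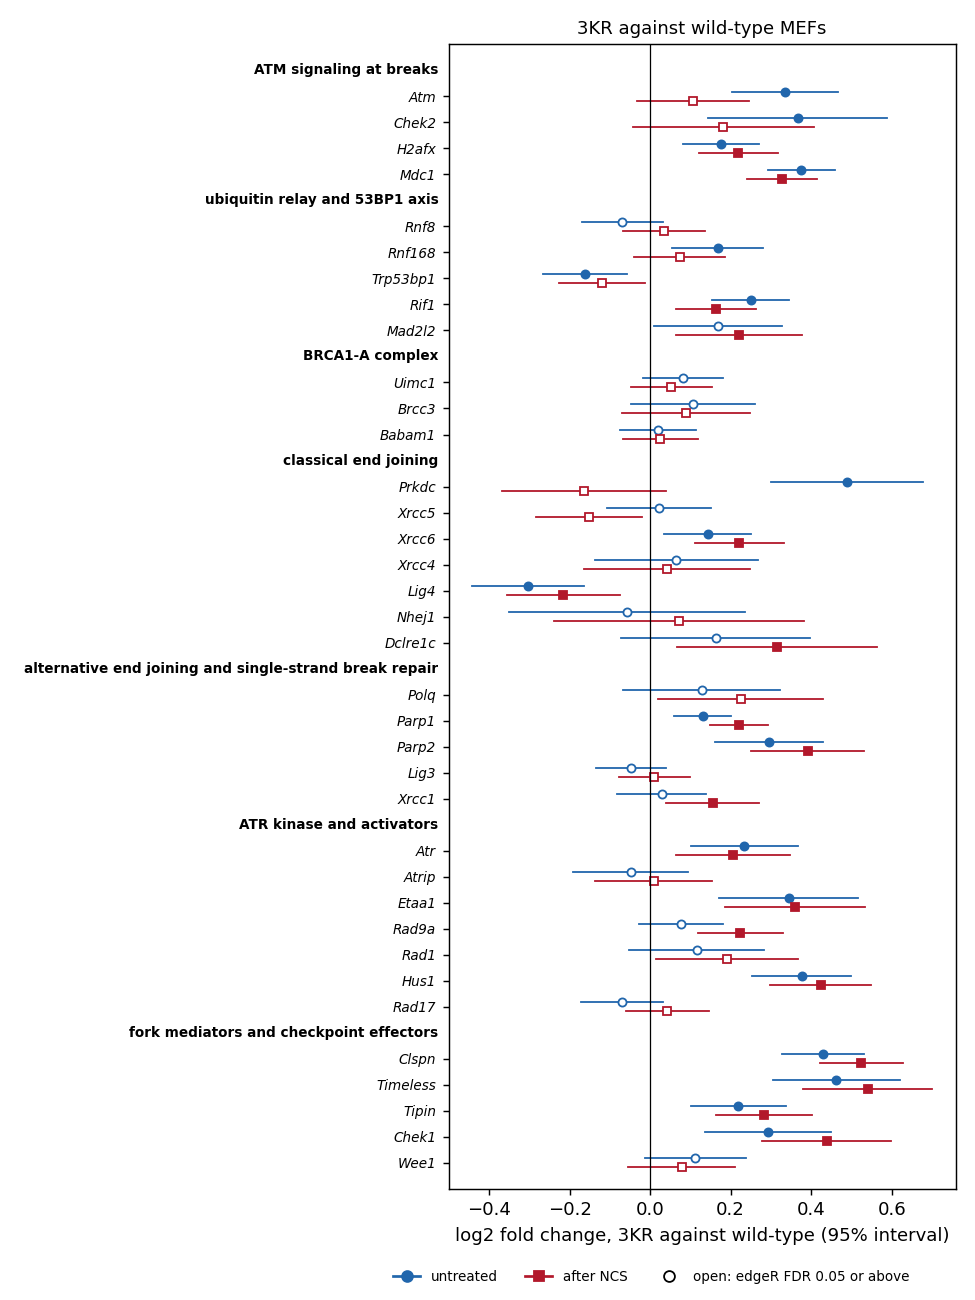
Log2 ratio of 3KR to wild-type MEFs (horizontal axis) for each gene, by role, in untreated (blue circles) and NCS-treated MEFs (red squares), with 95% intervals and filled symbols where the edgeR FDR is under 0.05. Clspn, Timeless and Hus1 lie between 0.38 and 0.54 in both treatments, and Lig4 is filled below 0 in both.

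Of the fork mediators and checkpoint effectors, 4 of 5 were higher in 3KR MEFs in both treatments. Of all tested genes 22.1% were higher before and 22.9% after NCS. Clspn (ENSMUSG00000042489), the adaptor through which ATR phosphorylates CHK1, had 801, 793 and 812 normalized counts in untreated wild-type and 1042, 1093 and 1117 in untreated 3KR MEFs, and after NCS 747, 769 and 765 in wild-type and 1071, 1096 and 1116 in 3KR MEFs. The genotypes did not overlap, and the log2 fold change of Clspn was 0.43 ± 0.049 before (edgeR FDR = 1.22e-07) and 0.52 ± 0.05 after NCS (edgeR FDR = 6.22e-09). Timeless (ENSMUSG00000039994), which with Tipin steadies stalled forks, had 593, 585 and 539 normalized counts in untreated wild-type and 767, 867 and 747 in untreated 3KR MEFs, and after NCS 488, 576 and 560.2 in wild-type and 708, 831 and 830.2 in 3KR MEFs. All 3KR samples of Timeless exceeded all wild-type samples, by log2 values of 0.46 ± 0.076 and 0.54 ± 0.077 (edgeR FDR = 2.24e-05 and 3.59e-06). Tipin was higher by 0.22 and 0.28 and Chek1, the effector kinase of ATR, by 0.29 and 0.44. Wee1 overlapped between genotypes in both treatments (0.11 and 0.079, edgeR FDR = 0.138 and 0.336).

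Of the ATR kinase and its activators 3 of 7 were higher before and 4 of 7 after NCS. Of all tested genes 22.1% and 22.9% were higher. Hus1 (ENSMUSG00000020413), a clamp subunit, had 658, 606 and 697 normalized counts in untreated wild-type and 857, 858 and 840.2 in untreated 3KR MEFs, and after NCS 630.4, 581 and 621 in wild-type and 803, 800.4 and 852 in 3KR MEFs. No wild-type sample of Hus1 reached a 3KR sample, and the difference was 0.38 ± 0.059 and 0.42 ± 0.061 on the log2 scale (edgeR FDR = 1.32e-05 and 3.66e-06). Atr was higher by 0.23 before (edgeR FDR = 0.00447) and 0.21 after NCS (edgeR FDR = 0.0162), the latter lost without treated wild-type replicate 2 (0.15) or treated 3KR replicate 3 (0.16). Etaa1 was higher by 0.34 and 0.36, and 5.66% of the 50-base words in its exons recur in the pseudogene Gm11284. Rad9a passed the test after NCS and not before, at 0.22 (edgeR FDR = 0.0009) against 0.077 before (edgeR FDR = 0.227), with 9.53% of its exon bases covered by Ppp1ca on the other strand, and the difference of responses did not pass the test (edgeR FDR = 0.312). Rad1 had 0.12 and 0.19 (edgeR FDR = 0.26 and 0.07), Atrip -0.048 and 0.0088, and Rad17 -0.069 and 0.042.

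All 4 ATM signaling genes were higher in untreated 3KR MEFs and 2 of 4 after NCS, against 22.1% and 22.9% of all tested genes. Mdc1, with the counts given above, did not overlap between genotypes in either treatment and was higher by 0.38 ± 0.04 before (edgeR FDR = 4.52e-08) and 0.33 ± 0.042 after NCS (edgeR FDR = 7.95e-07). H2afx was higher by 0.18 and 0.22. Atm was higher before NCS by 0.34 (edgeR FDR = 0.00012) and overlapped after it, at 0.11 (edgeR FDR = 0.203). Chek2 was higher before NCS, at 361 ± 2.4 against 277 ± 37.4 normalized counts (mean ± SD, n = 3, edgeR FDR = 0.00715), and had a log2 fold change of 0.18 after it. In the 53BP1 axis Rif1 was higher by 0.25 and 0.16 in the 2 treatments. Rnf168 was higher before NCS by 0.17 (edgeR FDR = 0.014), lost without untreated wild-type replicate 3 (0.12) or untreated 3KR replicate 1 (0.11), and had 0.073 after it. Mad2l2 had 0.17 before (edgeR FDR = 0.0756) and was higher by 0.22 after NCS (edgeR FDR = 0.0205), a call lost without treated wild-type replicate 2 (0.22) or treated 3KR replicate 3 (0.19).

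Lig4 and Trp53bp1 were the 2 genes lower in untreated 3KR MEFs. Lig4 (ENSMUSG00000049717), the ligase that seals ends in classical joining, had 616, 725 and 661 normalized counts in untreated wild-type and 573, 532 and 521 in untreated 3KR MEFs, and after NCS 677, 658 and 675 in wild-type and 581, 543 and 605 in 3KR MEFs. No 3KR sample reached a wild-type sample within a treatment, and Lig4 was at -0.30 ± 0.067 before (edgeR FDR = 0.000695) and -0.22 ± 0.068 after NCS (edgeR FDR = 0.0117), the latter lost without treated 3KR replicate 2 (-0.17). Trp53bp1 had a log2 fold change of -0.16 ± 0.05 before NCS (edgeR FDR = 0.0104) with no overlap, lost without untreated 3KR replicate 2 (-0.14), and -0.12 after NCS (edgeR FDR = 0.0622), where samples overlapped. Rnf8 had -0.069 and 0.034, and 13.2% of its exon bases are shared on the same strand with Gm28043. The 3 genes of the BRCA1-A complex had intervals of -0.017 to 0.18 for Uimc1, -0.047 to 0.26 for Brcc3 and -0.074 to 0.12 for Babam1 before NCS, and 0 of 3 had an unadjusted p under 0.05 in either treatment, with 0 called by edgeR or DESeq2. After NCS their log2 fold changes ran from 0.026 to 0.09.

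In the other end joining genes, Parp1 and Parp2 were higher in 3KR MEFs in both treatments. Parp2 exceeded wild-type by 0.30 ± 0.065 before (edgeR FDR = 0.000637) and 0.39 ± 0.067 after NCS (edgeR FDR = 4.06e-05), and Parp1 by 0.13 and 0.22. Xrcc6 was higher by 0.14 before (edgeR FDR = 0.0275) and 0.22 after NCS (edgeR FDR = 0.00143). Its untreated call was lost by DESeq2 (0.15) and without replicate 1 or 3 of the wild-type (0.12 and 0.14) or 1 or 2 of the 3KR samples (0.14 and 0.13). Xrcc1 and Dclre1c passed the test after NCS, at 0.16 (edgeR FDR = 0.0249) and 0.31 (edgeR FDR = 0.0351). The call of Xrcc1 was lost without treated wild-type replicate 2 (0.14) or treated 3KR replicate 2 (0.078). Samples of Dclre1c overlapped, and its call was lost by DESeq2 (0.31) and without treated wild-type replicate 2 (0.19), treated 3KR replicate 1 (0.22) or treated 3KR replicate 3 (0.30). Xrcc5 had 0.022 and -0.15, Xrcc4 0.066 and 0.042, Nhej1 -0.057 and 0.071, Lig3 -0.047 and 0.011 and Polq 0.13 and 0.22, with edgeR FDR values of 0.0562 for Xrcc5 and 0.0662 for Polq after NCS.

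Other genes moved with the genotype in the same samples. Of the 27 S, G2 and M phase genes 23 were higher and 1 lower in untreated 3KR MEFs, and 25 were higher and 1 lower after NCS. The S phase genes summed to 34779 to 35169 normalized counts in untreated wild-type and 41588 to 42528 in untreated 3KR MEFs, and the G2 and M phase genes to 27826 to 28576 and 34289.8 to 34750.4. Of 20 p53 targets, 16 were lower in untreated 3KR MEFs. All 10 macrophage markers were higher in untreated 3KR MEFs, with sums of 7896 to 8069 against 3991 to 4712, and 8 of 10 Schwann cell and neural crest markers were lower, with sums of 2279.7 to 2388 against 9892 to 10138. After NCS 8 of 10 macrophage markers were higher, with sums of 7198 to 7442 against 4275 to 5001, and 8 of 10 Schwann cell and neural crest markers lower, with sums of 2123 to 2215 against 9864 to 10312. In untreated 3KR MEFs 9 of 12 fibroblast markers were higher and 2 lower, of 5 tested endothelial markers 0 and 1, and of 3 tested epithelial markers 2 and 1. Of 4 tested skeletal muscle markers 0 were higher and 2 lower there. All 7 listed skeletal muscle markers, of which Ckm was at 0 in every sample, summed to 1977 to 2140.4 against 5225 to 5504. The part of the cell cycle, of other cell types and of sex in the genotype differences of the 36 genes was not tested. The 4 genes with an E2F word in the promoter all exceeded wild-type in untreated 3KR MEFs (median log2 fold change 0.37), and 3 of 4 did after NCS. Of the 26 other genes with a promoter sequence, 9 were higher and 2 lower before, with a median of 0.11, and 10 were higher and 1 lower after NCS. The untreated call of Xrcc6, 1 of the 4, was lost in several alternatives, as given above. With 4 genes this is a description of these promoters, and calls of other tested genes with an E2F word were not counted.

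The response to NCS was then compared between the genotypes. Of the 36 genes 1 differed, Prkdc, whose response was lower in 3KR MEFs, and 0 had a higher response, against 1.87% and 1.86% of all tested genes. At an unadjusted p under 0.05 the response of 2 genes was lower and of 0 higher. Of all 15327 tested genes 2499 had such a p, in either direction. For the 36 genes DESeq2 called the same counts as edgeR, 1 and 0. Of all tested genes 572 differed, and 1379 with the sample number within each genotype as a replicate block. Whether samples of the same number came from the same culture is not given. Prkdc (ENSMUSG00000022672) encodes the catalytic subunit of DNA-PK, the kinase that Ku recruits to a broken end. It had 360.4, 454 and 481 normalized counts in untreated and 436, 409 and 356 in treated wild-type MEFs, and 603, 615 and 599 in untreated and 328, 385 and 361 in treated 3KR MEFs. Untreated 3KR samples were above the samples of all other groups, which overlapped each other. After NCS Prkdc fell by 0.76 ± 0.094 in 3KR MEFs on the log2 scale (edgeR FDR = 1.17e-06), to 0.591 of the untreated level, and its log2 fold change was -0.11 ± 0.095 in wild-type MEFs (edgeR FDR = 0.464). The difference of the responses was -0.65 ± 0.13 (edgeR FDR = 0.00556) with a 95% interval of -0.93 to -0.38. Between genotypes Prkdc was higher in untreated 3KR MEFs by 0.49 (edgeR FDR = 9.92e-05) and had -0.16 after NCS (edgeR FDR = 0.183), a value of -0.24 without wild-type replicate 3 in both treatments (edgeR FDR = 0.0221). The difference of responses passed the test under all 19 alternatives, from -0.82 to -0.53, and these comparisons share samples.

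For the other 35 genes the difference of responses ranged from -0.23 for Atm to 0.15 for Dclre1c. Over all 36 genes 24 lay above 0, against 7823 of the 15327 tested genes, with medians of 0.055 and 0.0039. Atm had a 95% interval of -0.42 to -0.039 and an edgeR FDR of 0.201. Without replicate 3 of both wild-type treatments its difference was -0.31 (edgeR FDR = 0.00522), and Atm also passed the test without replicate 3 of the untreated wild-type samples alone. Intervals of the other genes were as wide as -0.30 to 0.56 for Nhej1 and as narrow as -0.012 to 0.19 for Parp1, and a gene that missed the threshold was not shown to respond alike in the genotypes. Of the 11 G2 and M phase genes 9 had a higher response in 3KR than in wild-type MEFs, and their part in the 36 genes was not tested.

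A second list held 41 further genes of the pathway, of which 39 were tested. With NCS 3 rose and 12 fell in wild-type and 5 rose and 12 fell in 3KR MEFs. Falling genes were 30.8% of this list in each genotype, against 12.4% and 15% of all tested genes and 38.9% and 25% of the 36. Rising genes were 7.69% and 12.8% of the list, against 14.3% and 15.8% of all tested genes. Cdc25b and Cdc25c, phosphatases that release mitotic entry, fell in wild-type MEFs by log2 values of 0.69 and 0.81 and by 0.40 and 0.53 in 3KR MEFs, and Dbf4, the activator of the CDC7 kinase, by 0.42 and 0.33. Rnf169, a ligase-related protein that competes with 53BP1 for ubiquitin marks, rose by 0.53 and 0.75, Cdc25a, a phosphatase that checkpoint kinases target for degradation, by 0.17 and 0.31, and Pkmyt1, a WEE1-like kinase, by 0.24 and 0.25. Rpa3, a subunit of the single-strand binding protein RPA, rose in 3KR MEFs by 0.39 and had -0.11 in wild-type MEFs. Of the MRN complex and resection genes 3 of 4 fell in wild-type and 2 of 4 in 3KR MEFs and of the 10 tested genes of ATR activation and clamp loading 1 fell in each. Between genotypes 13 of the 39 were higher and 5 lower in untreated 3KR MEFs, and 18 were higher and 4 lower after NCS, with 5 and 7 of the 10 ATR activation genes higher. Higher were 33.3% before and 46.2% after NCS, against 22.1% and 22.9% of all tested genes and 47.2% of the 36 in each. Lower were 12.8% and 10.3%, against 23.6% of all tested genes in each. The response differed for Herc2, a partner of RNF8, at -0.30 (edgeR FDR = 0.0231), and for Cdc25b at 0.29 (edgeR FDR = 0.0488).

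Counted over the 5 comparisons, Atr, H2afx, Mdc1 and Rif1 passed the test in 4, falling with NCS in both genotypes and lying higher in 3KR MEFs in both treatments. Atm, Parp1, Parp2, Prkdc, Trp53bp1 and Xrcc6 passed in 3. At the other end 8 genes passed in 0: Rnf8, the BRCA1-A genes Uimc1, Brcc3 and Babam1, Xrcc4, Nhej1, Atrip and Rad17. The comparisons share samples, and how often all tested genes passed in as many of them was not counted. Within a group the coefficient of variation of the 36 genes had a median of 4.01% and ran from 0.276% to 21.3%.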

How the data were processed

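RNA-seq of 12 MEF samples in 4 groups of 3 was analysed, grouped by genotype and treatment as per the labels. The authors deposited whole-number counts per gene, 1 file per sample, made from stranded poly-A libraries. The submitters' notes name TopHat, HTSeq, DESeq and the build mm9, and versions and the strand setting of the counting are not given in the sources used here. GENCODE M21 (GRCm38) was used only for names, lengths and exon overlaps, and RefSeq (GRCm38.p6) for promoters.

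The main test was the edgeR 4.0.16 quasi-likelihood F test (R 4.3.3), after filterByExpr and TMM scaling. The model had 1 coefficient per group over all 12 samples, and 5 contrasts were adjusted by the Benjamini-Hochberg method over 15327 genes, with calls at an FDR under 0.05. Standard errors are the size of the log2 fold change divided by the square root of F. Normalized counts are counts divided by DESeq2 1.42.0 size factors. The common biological coefficient of variation was 3.95%. Scripts were tested on simulated data. Figures were drawn with matplotlib 3.10.9.

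The members, lists and tests were chosen with earlier results of these data known. All 36 genes are named, with values per sample for up to 4 called genes of lowest p per direction and comparison and for each gene called in the difference of responses. Of the other pathway genes the 3 of lowest p per direction and NCS comparison are named, with the p53 targets Cdkn1a, Mdm2 and Ccng1, the targeted gene E2f1 and the sex-linked Xist and Ddx3y as checks. Herc2 was chosen after its values were seen. Deviations from group means over 11458 genes correlated between same-numbered untreated and NCS-treated samples at 0.160, 0.146 and 0.338 in wild-type and at -0.129, -0.106 and -0.032 in 3KR MEFs. By these values the number matched wild-type replicate 3 across treatments, which correlated at -0.233 to -0.209 with the other numbers. Wild-type replicates 1 and 2 correlated across numbers as well (0.139 and 0.150), so their numbers could not be told apart. The numbers pair neither the 3KR samples nor the genotypes (-0.078 to 0.065).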

Additional observations from a re-analysis of the deposited data

Results flagged for a closer look

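The response to NCS differed between genotypes, by the test of the difference itself, for 5 of the genes named. Prkdc differed by -0.65 on the log2 scale (3KR minus wild-type, edgeR FDR = 0.00556), with the counts given in the report. Herc2 differed by -0.30 (edgeR FDR = 0.0231). Its normalized counts were 4084, 4197 and 4971 in untreated and 4384, 4526 and 4759 in treated wild-type MEFs, which overlapped, and 4884, 4630.1 and 4788 in untreated and 4134, 3986 and 3852 in treated 3KR MEFs, which did not. Cdc25b fell in both genotypes with a difference of 0.29 (edgeR FDR = 0.0488). Cdkn1a and Ccng1 rose in both, with differences of 0.16 (edgeR FDR = 0.0189) and 0.34 (edgeR FDR = 5.73e-05).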

How the results depend on the processing

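Of the 61 member values called in the 5 comparisons, 46 kept their direction and call under all alternatives, and over 859 recomputations 820 did so, 39 lost the call and 0 changed direction. Leaving out 1 sample, the number of members called ranged from 10 to 15 for NCS in wild-type, 8 to 12 for NCS in 3KR, 17 to 20 for untreated 3KR against wild-type, 16 to 19 after NCS and 1 to 2 for the difference of responses. The latter was 2 without replicate 3 of untreated wild-type and 2 without wild-type replicate 3 in both treatments, Atm being added to Prkdc. Without wild-type replicate 3 in both treatments the other counts were 13, 13, 19 and 21, and all genes whose response differed numbered 1842 against 572, with 1159 without the untreated and 823 without the treated sample and 345 as the lowest value with 1 sample left out. With the replicate block 15, 11, 19 and 21 members were called and 1 for the difference. In addition to Dclre1c in wild-type, named in the report, the block added Babam1 (0.10) and Lig3 (-0.09) for NCS in 3KR, and Trp53bp1 (-0.12), Xrcc5 (-0.15) and Polq (0.23) after NCS, where the numbers do not pair the samples. The block, the other scalings and the other filters on low counts each ended 0 calls. The member levels per length had a median of 5.37 with DESeq2 size factors against 5.38. The causes of these shifts were not tested. The lowest count of a member in any sample was 77, so counting error is widest for the low genes such as Nhej1.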
